A study of Mus musculus with 17 samples.

Results

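The C-type lectin receptors of the dectin-1 and dectin-2 gene clusters and the adaptor Card9 were followed in sorted mouse KCs (Kupffer cells), which are macrophages that live in the sinusoids of the liver. The set held 9 genes, found by symbol in each of 3 deposited expression tables that list 25124 genes each, and all 9 were present in every table. They were 8 receptors, Clec7a, Clec4n, Clec4d, Clec4e, Clec4a1, Clec4a2, Clec4a3 and Clec12a, and Card9. The set was labelled as activating lectins, but Clec4a2 and Clec12a are known as inhibitory receptors, so the genes are called here the dectin-cluster lectins.

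RNA-seq was available for 17 samples. Within TIM4+CD206+ KCs, 3 samples came from tumour-free livers and 3 from tumour-bearing livers, taken 2 weeks after KPC pancreatic tumour cells were injected into the portal vein. TIM4+CD206hi KCs, the less abundant subset, had 3 samples from tumour-free and 3 from tumour-bearing livers. The last 5 samples were KCs without tumour, 3 of Id3f/f littermates, which carry the floxed Id3 alleles without Cre, and 2 of Clec4fCreId3f/f mice, in which Cre is driven by Clec4f, a KC gene that is itself a C-type lectin, so that deletion is limited to cells that express it. Values were deposited on a log2 scale after a regularization that was run separately for each table, so groups were tested only within a table and levels in different tables were set side by side without a test. Summed on the linear scale, a sample held 21800000 to 39700000 normalised fragments. Nothing in the labels ties the replicates to separate animals, so p-values measure the spread between these samples.

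C-type lectins of this kind sit on the surface of macrophages and dendritic cells and bind sugars or lipids of fungi, mycobacteria and dying cells. Dectin-1 (Clec7a) signals through its own tyrosine motif, whereas dectin-2 (Clec4n), MCL (Clec4d) and Mincle (Clec4e) pair with the Fc receptor gamma chain, encoded by Fcer1g. These routes meet at the kinase SYK and at CARD9, which joins BCL10 and MALT1 and leads to NF-kB and cytokine genes. The DCIR-family gene Clec4a2 and Clec12a encode receptors with an inhibitory motif that recruits the phosphatases SHP-1 (Ptpn6) and SHP-2 (Ptpn11). Clec4a1 and Clec4a3 encode further members of the DCIR family.

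The 8 receptor genes lie on mouse chromosome 6 in 2 groups. In GRCm38, Clec4a1, Clec4a3, Clec4a2, Clec4n, Clec4d and Clec4e span chr6:122921848-123289870, a stretch of 368.0 kb. Clec12a and Clec7a span chr6:129342691-129472779, a stretch of 130.1 kb that starts 6052.8 kb further on. Clec4f, whose promoter drives the Cre, lies on the same chromosome, 39265.7 kb from the nearest of them. Card9 lies apart on chr2:26352176-26360918, and its exons overlap those of the antisense transcript Gm13562. The library kit does not mark strand, so reads of Card9 and Gm13562 cannot be told apart in the overlap. No 100-base window of the transcripts was shared with another gene for 8 of the 9 genes, and for Clec4a2 2.14% of windows also occurred in Clec4a4.

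The promoters shown are those of the 5 genes called changed in a comparison, because those genes carry the results. They are RefSeq sequences of GRCm38.p6, the 250 bases before each start, 5′ to 3′ on the gene's own strand. RefSeq windows matched 8 of the 9 genes. For the 3 genes called with Id3 deletion, capitals mark the E-box CANNTG, the element bound by the E proteins that ID3 is known to sequester. For the 2 genes called with tumour, capitals mark GAGGAA or its reverse complement, a core of the sites of the macrophage factor PU.1.
Clec7a, chr6:129472780-129473029, minus strand: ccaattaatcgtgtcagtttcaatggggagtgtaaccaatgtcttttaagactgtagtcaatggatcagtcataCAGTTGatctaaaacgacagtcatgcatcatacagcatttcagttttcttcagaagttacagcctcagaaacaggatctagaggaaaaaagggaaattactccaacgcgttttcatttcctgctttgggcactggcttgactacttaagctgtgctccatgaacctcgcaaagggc
Clec12a, chr6:129349994-129350243, plus strand: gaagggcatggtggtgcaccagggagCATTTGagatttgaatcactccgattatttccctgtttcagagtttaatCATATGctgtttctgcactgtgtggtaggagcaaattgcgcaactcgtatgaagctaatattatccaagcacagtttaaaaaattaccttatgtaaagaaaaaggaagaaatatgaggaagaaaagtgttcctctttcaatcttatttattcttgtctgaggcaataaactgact
Clec4a1, chr6:122921598-122921847, plus strand: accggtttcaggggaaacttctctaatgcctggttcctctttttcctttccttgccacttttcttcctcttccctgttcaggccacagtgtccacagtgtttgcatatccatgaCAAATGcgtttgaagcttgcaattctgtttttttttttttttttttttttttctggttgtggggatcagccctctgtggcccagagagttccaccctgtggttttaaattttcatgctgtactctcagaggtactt
Clec4d, chr6:123261857-123262106, plus strand: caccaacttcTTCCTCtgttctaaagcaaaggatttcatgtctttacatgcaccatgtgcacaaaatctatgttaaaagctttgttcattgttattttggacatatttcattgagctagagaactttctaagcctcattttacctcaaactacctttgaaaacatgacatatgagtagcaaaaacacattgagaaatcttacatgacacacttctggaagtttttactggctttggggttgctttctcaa
Clec4e, chr6:123289872-123290121, minus strand: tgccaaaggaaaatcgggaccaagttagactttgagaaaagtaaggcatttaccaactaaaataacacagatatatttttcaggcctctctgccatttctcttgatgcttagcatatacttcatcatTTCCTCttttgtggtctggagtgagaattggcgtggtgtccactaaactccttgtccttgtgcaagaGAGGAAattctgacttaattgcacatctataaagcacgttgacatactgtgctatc
Searched on both strands, CANNTG was present in the windows of 7 of the 8 genes, all but Clec4e, and in 66.2% of 32851 mouse promoter windows of the same length. GAGGAA was present for 6 of the 8 genes and in 23.3% of all windows. Those genes include Clec7a, Clec12a and Clec4a1, where it is left in lower case, as is CANNTG in Clec4d. Counted by window, CANNTG was in 9 and GAGGAA in 7 of the 10 windows of these genes. Clec7a and Clec4a3 each gave overlapping windows, so the same CANNTG match was counted again for both, and the same GAGGAA for Clec7a. A loose form of the AP-1 element, TGANTCA with any middle base, was present for 1 gene, Clec12a, as TGAATCA, against 6.75% of all windows. An NF-kB element was present for none, against 4.11%. Such a match is a run of letters and not a measured site.

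The receptors differed widely in level. Levels of different genes were compared per kilobase of transcript, as the log2 value less the log2 of the RefSeq transcript length in kilobases. Clec4n, which encodes dectin-2, was highest in all 6 groups, with group means from 13.15 to 14.69 per kilobase. That placed it above 98.3 to 99.3% of genes in its group. Clec7a, Clec4a3 and Clec12a followed, with means per kilobase from 11.48 to 12.86. Clec4a1 and Clec4a2 lay between 9.27 and 11.35. Clec4d, Clec4e and Card9 were lowest in every group, from 3.68 to 8.79, with Clec4e last in tumour-free TIM4+CD206+ and both Id3 groups. Measured over all annotated exons in place of the RefSeq transcript, Clec4n stayed highest in each of the 6 groups. Other places in the order changed. Clec12a then lay below Clec4a1, at 10.82 against 10.91 in Id3f/f and 10.42 against 11.35 in Clec4fCreId3f/f KCs.

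Neighbours in that order were often not separable. A pair of neighbours was called not separable where the gap between their means was no larger than the sum of their SDs. This rule sets aside that the genes were measured in the same samples. In tumour-free TIM4+CD206+ KCs, this held for Clec12a and Clec7a (gap 0.06), Clec4a1 and Clec4a2 (gap 0.20), and Card9 and Clec4d (gap 0.35). In tumour-bearing TIM4+CD206+ KCs it held for Clec7a and Clec4a3 (gap 0.28) and for Card9 and Clec4e (gap 0.03). In tumour-free TIM4+CD206hi KCs it held for each neighbouring pair of the 4 highest genes, Clec4n, Clec4a3, Clec7a and Clec12a (gaps 0.29, 0.13 and 0.73). Every sample still gave these 4 genes in that order, and replicate 3 was the highest for each of them. By the same rule neither Clec4a2 and Clec4a1 (gap 0.10) nor Clec4e, Card9 and Clec4d (gaps 0.15 and 0.02) were separable. In tumour-bearing TIM4+CD206hi KCs 1 pair, Clec4e and Clec4d, was not separable (gap 0.11). In Id3f/f KCs the rule did not separate Clec4a3, Clec7a and Clec12a (gaps 0.30 and 0.22), though every sample gave them in that order. In Clec4fCreId3f/f KCs it did not separate Clec12a and Clec7a (gap 0.08).

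Card9 was low beside Clec4n and Clec7a but close to Clec4d and Clec4e. Per kilobase, Clec4n exceeded Card9 by 97.7-fold in tumour-free and 116-fold in tumour-bearing TIM4+CD206+ KCs, by 70.1-fold and 61.7-fold in the TIM4+CD206hi groups, and by 497-fold and 407-fold in Id3f/f and Clec4fCreId3f/f KCs. Clec7a exceeded it by 20.4-fold and 25.5-fold, 52.4-fold and 38.8-fold, and 129-fold and 79.7-fold in the same order of groups. Clec4d was at 0.786 and 1.95 times Card9, 0.986 and 1.32 times, and 2.58 and 2.21 times. Clec4e was at 0.344 and 0.98 times Card9 in TIM4+CD206+ KCs, 1.11 and 1.42 times in TIM4+CD206hi KCs, and 0.365 and 0.357 times in the Id3 groups. Over all annotated exons, Clec4e lay below Card9 in TIM4+CD206hi KCs too. The means were 6.19 against 6.79 in tumour-free and 7.02 against 7.26 in tumour-bearing samples.

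**Figure D1:**
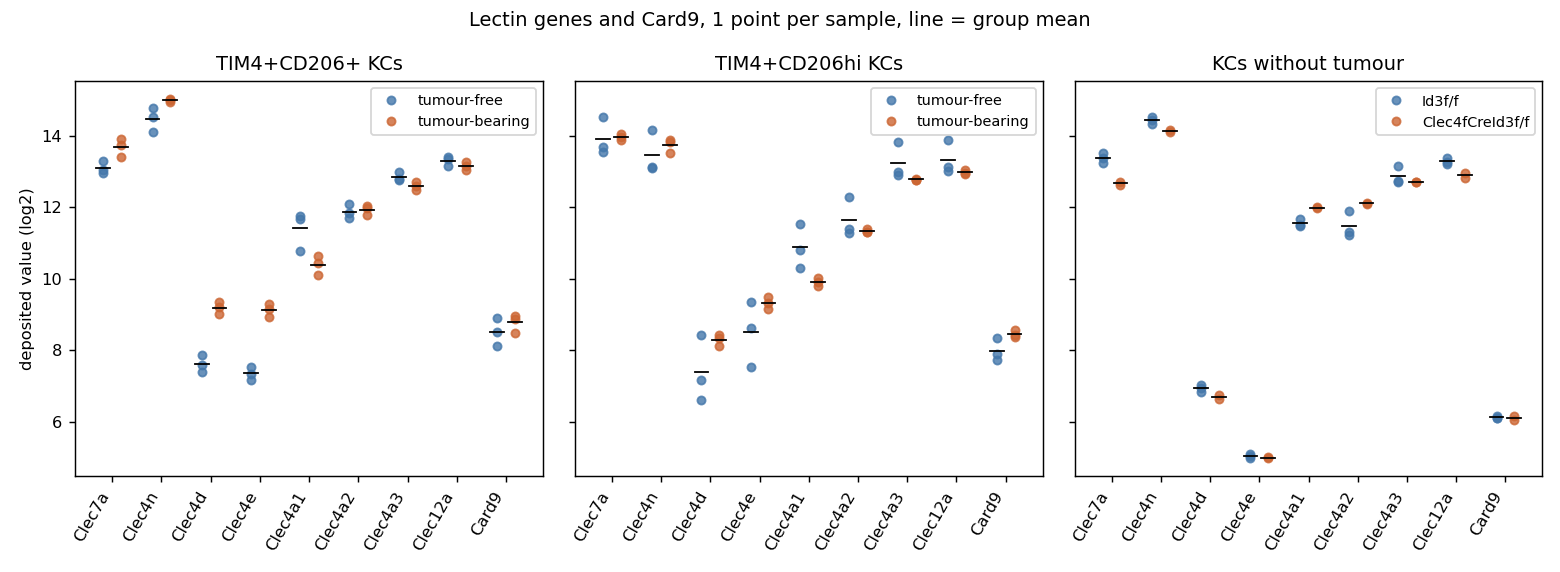
Deposited log2 values of the 9 genes, 1 point per sample, with group means as lines, for TIM4+CD206+ KCs, TIM4+CD206hi KCs and KCs of Id3f/f and Clec4fCreId3f/f mice. Clec4d and Clec4e separate the tumour groups of TIM4+CD206+ KCs, from means of 7.62 and 7.35 to 9.19 and 9.13, and the tumour-free TIM4+CD206hi samples spread more than the tumour-bearing ones.

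Samples that stood apart were identified by the share of genes that the comparisons themselves called once each was left out. The share called went from 3.54% to 7.64% without tumour-free TIM4+CD206+ replicate 2. Without tumour-free TIM4+CD206hi replicate 2, the share of all genes called in that subset went from 7.23% to 24.9%. Without Id3f/f replicate 3, the share called in the Id3 comparison went from 6.44% to 14.4%. KC identity genes were high in all samples, for example Clec4f at group means of 16.12 to 19.28 and Cd5l at 17.49 to 18.89, although some of them differed between groups, as given beside the comparisons. Sinusoidal endothelial genes were also strong in TIM4+CD206hi samples, with Clec4g at 15.98 in tumour-free and 15.09 in tumour-bearing samples. Id3 itself was 12.58, 12.46 and 12.82 in Id3f/f and 9.83 and 9.82 in Clec4fCreId3f/f KCs. In the same samples Xist was 6.33 to 6.38 against 9.76 to 9.84 and Ddx3y 9.43 to 9.46 against 7.00 to 7.01, so sex and genotype differ together and cannot be told apart.

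The change with tumour was asked first in TIM4+CD206+ KCs. The receptor genes Clec4d and Clec4e rose with tumour, and the other 7 genes did not pass the test. The 2 calls, both upwards, stood beside 3.54% of 13233 genes called in this comparison, 2.55% upwards and 0.998% downwards. Over the 9 genes the median difference was 0.26, against 0.02 over all genes tested.

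Clec4e, which encodes Mincle, was 7.18, 7.34 and 7.55 in tumour-free and 9.29, 8.92 and 9.17 in tumour-bearing TIM4+CD206+ samples. Every tumour-bearing sample lay above every tumour-free one. The difference was 1.77 on the log2 scale (SE 0.23, 3.42-fold, adjusted p = 0.00441, limma). Clec4d, which encodes MCL, the partner with which Mincle forms a complex, was 7.86, 7.40 and 7.59 against 9.20, 9.03 and 9.35. Its groups did not overlap either. Its difference was 1.58 (SE 0.23, 2.98-fold, adjusted p = 0.00788), and without tumour-bearing replicate 3 its adjusted p was 0.0508.

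Clec7a and Clec4n were higher in each tumour-bearing sample without passing the test. Clec7a was 13.03, 12.96 and 13.29 in tumour-free and 13.73, 13.39 and 13.91 in tumour-bearing samples. The gap between the groups was small, from 13.29 to 13.39, and the difference of 0.58 (SE 0.18) had an adjusted p of 0.142. Clec4n was 14.53, 14.10 and 14.78 against 14.99, 15.02 and 14.95, a difference of 0.52 (SE 0.19, adjusted p = 0.218). The 3 tumour-bearing values of Clec4n all lay above the highest tumour-free one.

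Clec4a1 ran the other way. It was 11.76, 10.79 and 11.67 in tumour-free and 10.43, 10.11 and 10.65 in tumour-bearing samples. All tumour-bearing values were below the tumour-free ones, of which replicate 2 was the lowest. The difference was -1.01 (SE 0.28, adjusted p = 0.104). Clec4a3 was 12.77, 12.79 and 12.98 against 12.71, 12.47 and 12.59, also without overlap, with a difference of -0.26 (SE 0.15, adjusted p = 0.451).

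The remaining genes overlapped between the groups. Clec4a2 was 11.83, 11.69 and 12.10 against 11.98, 11.77 and 12.02, a difference of 0.04 (95% interval -0.35 to 0.44). Clec12a, the uric acid crystal receptor, was 13.14, 13.39 and 13.34 against 13.15, 13.03 and 13.27, a difference of -0.14 (interval -0.49 to 0.20). Card9 was 8.52, 8.12 and 8.91 against 8.50, 8.97 and 8.89, a difference of 0.26 (interval -0.35 to 0.88). In all, 6 of the 9 genes had groups that did not overlap, 4 higher and 2 lower, beside 23.4% of all genes tested, 12.9% higher and 10.5% lower.

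In TIM4+CD206+ KCs same-numbered tumour-free and tumour-bearing samples deviated together, with correlations of 0.35, 0.56 and 0.15. The labels do not state that they are pairs. With the number as a block, Clec7a (adjusted p = 0.0484) and Clec4a1 (adjusted p = 0.00638) were called as well, which made 4 calls, 3 higher and 1 lower, beside 7.75% of all genes. Without tumour-free replicate 2, Clec4a1 was also called, with a difference of -1.32 (adjusted p = 0.00733), beside 7.64% of all genes.

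Transcripts of other cell types moved with tumour in the same samples. Of 9 monocyte markers 4 rose, and their summed level was 13700 to 36700 in tumour-free and 42300 to 49300 in tumour-bearing samples, with Plac8, the most abundant of them, at means of 14.02 and 14.70 and not called. Of 7 recruited-macrophage markers 6 rose, the largest difference being 3.95 for Spp1, and their sum went from 8440 to 11200 to 50000 to 63400. Of 11 neutrophil markers 6 rose, with sums of 8660 to 17600 and 34100 to 37000. All 7 tested of 8 epithelial markers rose, from 1680 to 3330 to 32800 to 38200, and no marker of these lists was at 0. The Kupffer cell list, of which 3 of 13 genes fell, summed to 1840000 to 2370000 and 1290000 to 1380000. Hepatocyte (7 of 8) and B cell (3 of 4 tested) markers fell, with sums of 18500 to 23000 against 5400 to 7540 and 8700 to 9220 against 4100 to 4670, and no dendritic, T or NK, endothelial or stellate marker was called. Clec4d and Clec4e are known to be expressed by monocytes and neutrophils too. The part of these cells in the rise of Clec4d and Clec4e was not tested, and in bulk samples fewer cells of a type and less RNA per cell cannot be told apart.

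**Figure D2:**
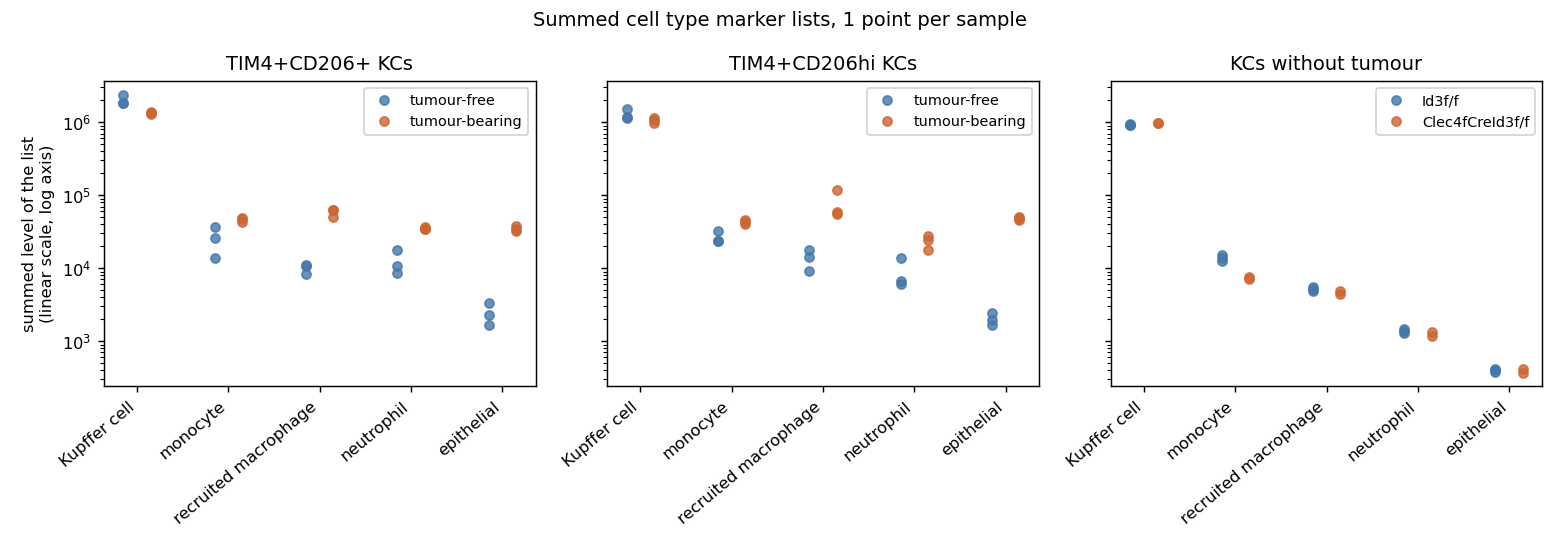
Summed levels of the Kupffer cell, monocyte, recruited macrophage, neutrophil and epithelial marker lists, 1 point per sample, on a log axis of linear-scale values. The monocyte, recruited macrophage, neutrophil and epithelial lists separate tumour-free from tumour-bearing samples in both subsets. Epithelial sums were 1680 to 3330 against 32800 to 38200 in TIM4+CD206+ KCs. In the KCs without tumour the neutrophil and epithelial lists overlap.

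The rest of the pathway gave no call in this subset. None of the 10 genes of the kinase and adaptor list, 8 of the CARD9 complex, 7 of NF-kB, 3 phosphatases or 10 tested cytokine and response genes passed the test. Fcer1g, the gamma chain, was 15.85 and 15.69 in tumour-free and tumour-bearing means, and Lyn, a Src-family kinase, 14.17 and 13.95. Bcl10, which binds CARD9, was at 11.65 and 11.54. Ptpn6 was 15.54 and 14.97, a difference of -0.57 (adjusted p = 0.155). Il1b, the most abundant cytokine of the list, was 13.09 and 13.30. Among the 7 tested neighbours in the same 2 clusters, Olr1, the receptor for oxidised LDL, was the only one called, at 4.28 and 5.69 (difference 1.41, adjusted p = 0.00968).

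In TIM4+CD206hi KCs no gene of the set passed the test with tumour. None of the 9 was called by limma, beside 7.23% of 14561 genes, 5.21% upwards and 2.03% downwards, and 1, Clec4a1, had an unadjusted p below 0.05, beside 21.1% of all genes. The median difference over the 9 was 0.04, against 0.03 over all genes. Groups did not overlap for 3 genes, 1 higher and 2 lower, beside 30.7% of all genes, 15.6% higher and 15.2% lower.

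Clec4e was 7.54, 9.36 and 8.62 in tumour-free and 9.33, 9.50 and 9.16 in tumour-bearing TIM4+CD206hi samples. Tumour-free replicate 2 reached the level of the tumour-bearing samples, and the difference of 0.82 (SE 0.43) had an adjusted p of 0.324. Clec4d was 6.62, 8.43 and 7.18 against 8.34, 8.42 and 8.12. The same replicate was again the highest of the tumour-free samples, and slightly above all tumour-bearing ones, with a difference of 0.89 (SE 0.44, adjusted p = 0.301).

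Clec4a1 was 10.81, 10.29 and 11.54 against 9.92, 9.79 and 10.02. All tumour-bearing samples lay lower, by -0.97 (SE 0.31, adjusted p = 0.129), close in size to the other subset. Clec4a3 was 12.98, 12.91 and 13.82 against 12.79, 12.77 and 12.77. The groups did not overlap, and the difference was -0.46 (SE 0.25, adjusted p = 0.341). Card9 was 7.89, 8.34 and 7.72 against 8.56, 8.37 and 8.43. Each tumour-bearing sample was above the tumour-free ones, by 0.47 in the means (SE 0.23, adjusted p = 0.289).

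Tumour-free replicate 3 held the highest tumour-free value of 6 receptors. Clec7a was 13.55, 13.69 and 14.51 against 13.97, 14.03 and 13.87, a difference of 0.04 (interval -0.58 to 0.65). Clec4n was 13.08, 13.11 and 14.16 against 13.88, 13.81 and 13.51, a difference of 0.28 (interval -0.44 to 1.01). For both, replicate 3 exceeded all tumour-bearing samples. Clec4a2 was 11.27, 11.40 and 12.27 against 11.31, 11.32 and 11.39 (difference -0.31, interval -0.95 to 0.33). Clec12a was 13.87 in that sample and 12.94 to 13.12 in the other 5, tumour-free or not (difference -0.35, interval -0.92 to 0.22). Clec4a1 and Clec4a3 had their highest tumour-free value in the same sample.

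Calls among the 9 genes appeared in this subset only when single tumour-free samples were left out. Without replicate 2, 4 of the 9 genes were called beside 24.9% of all genes. They were Clec4d (1.40, adjusted p = 0.0085), Clec4e (1.25, adjusted p = 0.0367) and Card9 (0.64, adjusted p = 0.0481) upwards and Clec4a1 (-1.27, adjusted p = 0.0118) downwards. Without replicate 3, Clec4n alone was called, at 0.64 (adjusted p = 0.044), beside 8.79% of all genes. Whether the response to tumour differs between the subsets was not tested, because each subset was normalised in its own table.

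Markers of other cells moved here too. The monocyte sum was 23500 to 32400 in tumour-free and 39700 to 45600 in tumour-bearing samples, with 4 of 9 markers called higher. Among the tumour-free samples the monocyte sum was highest in replicate 2 and the neutrophil sum in replicate 3. The recruited-macrophage sum was 9100 to 17800 against 54700 to 117000 (5 of 7 higher), and the neutrophil sum 6090 to 13900 against 17700 to 27700 (6 of 11 higher), with none of these markers at 0. All 7 tested epithelial markers rose, from sums of 1660 to 2400 to 45800 to 50400. Endothelial markers summed to 175000 to 274000 against 110000 to 139000 (3 of 8 lower) and hepatocyte markers to 22800 to 27700 against 5280 to 6610 (6 of 8 lower), while 2 of 6 B cell and 2 of 6 stellate markers fell and no Kupffer cell, dendritic or T or NK marker was called. The part of these cells in the values of Clec4d and Clec4e was not tested. No gene of the kinase, CARD9, NF-kB, phosphatase or cytokine lists was called. Of these, Prkcd, a kinase that acts upstream of CARD9, had means of 12.34 and 13.51 (difference 1.17, adjusted p = 0.186), chosen after its values were seen. Fcer1g had 14.97 and 14.63, and Lyn 14.13 and 14.31.

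With Id3 deletion, Clec7a and Clec12a fell and Clec4a1 rose. The 3 calls stood beside 6.44% of 12833 genes, 3.08% upwards and 3.37% downwards. Over the 9 genes the median difference was -0.15, against 0.00 over all genes tested.

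Clec7a was 13.37, 13.51 and 13.22 in Id3f/f and 12.70 and 12.63 in Clec4fCreId3f/f KCs. Every Clec4fCreId3f/f value was below every Id3f/f one. The difference was -0.70 (SE 0.10, 0.614-fold, adjusted p = 0.0058). Clec12a was 13.37, 13.27 and 13.21 against 12.95 and 12.82. The groups did not overlap, and the difference was -0.40 (SE 0.09, 0.76-fold, adjusted p = 0.029).

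Clec4a1 was 11.48, 11.50 and 11.68 in Id3f/f and 11.98 and 12.00 in Clec4fCreId3f/f KCs. The deleted samples were both higher, by 0.44 (SE 0.09, 1.35-fold, adjusted p = 0.0271). Clec4a2 was 11.30, 11.23 and 11.88 against 12.13 and 12.09. Id3f/f replicate 3 stood closer to the deleted samples than to its own group, and the difference of 0.64 (SE 0.17) had an adjusted p of 0.0547. Clec4a3 was 12.70, 12.73 and 13.14 against 12.71 and 12.70, with the same Id3f/f sample highest and a difference of -0.15 (interval -0.44 to 0.13).

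Clec4n, the most abundant receptor, was 14.52, 14.44 and 14.33 against 14.15 and 14.11. The groups did not overlap, but the difference of -0.30 (SE 0.08) missed the threshold (adjusted p = 0.0593). Clec4d was 7.03, 6.96 and 6.85 against 6.65 and 6.77, a difference of -0.23 (SE 0.08, adjusted p = 0.132). Clec4e was 5.06, 5.12 and 4.99 against 4.99 and 5.03, or 32 to 35 fragments on the linear scale in each of the 5 samples. At that level the regularization draws values towards the mean of the gene, and the median SD within groups of genes between 4 and 6 was 0.0506, against 0.102 for genes between 10 and 12. Card9 was 6.12, 6.12 and 6.17 against 6.18 and 6.07, a difference of -0.01 (interval -0.15 to 0.13). The same regularization may narrow that interval, although genes between 6 and 8 had a median SD within groups of 0.0912.

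The Id3 calls rested on few samples. Groups did not overlap for 6 of the 9 genes, 2 higher and 4 lower, beside 41.9% of all genes, 20.2% higher and 21.7% lower. Without Clec4fCreId3f/f replicate 1 or 2, which leaves 1 deleted sample that is assumed to vary like the Id3f/f samples, none of the 9 was called, beside 0.132% and 0.148% of all genes. Clec7a then differed by -0.74 (adjusted p = 0.129) and -0.66 (adjusted p = 0.154). Without Id3f/f replicate 3, 6 of the 9 were called, beside 14.4% of all genes, with Clec4a2 at 0.84 (adjusted p = 2.58e-05) and Clec4n at -0.35 (adjusted p = 0.00235) among them. Without Id3f/f replicate 1 or 2, 1 of the 9, Clec7a, was called, beside 1.61% and 3.20% of all genes.

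**Figure D3:**
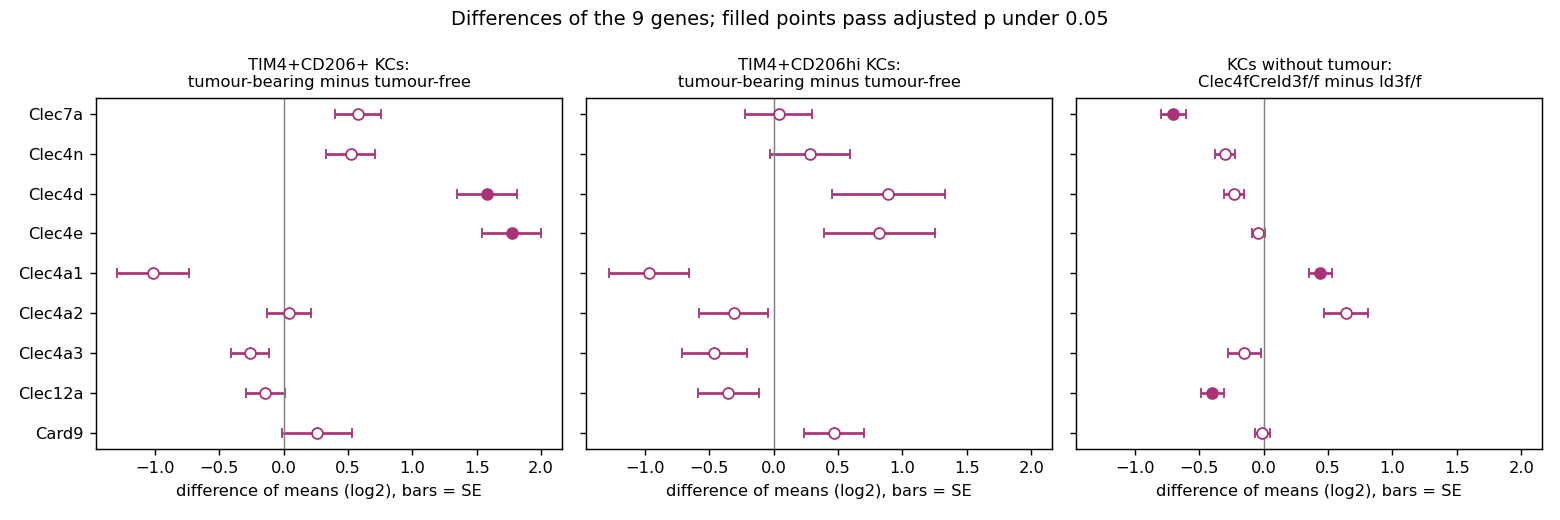
Differences of group means on the log2 scale with SE for the 9 genes, tumour-bearing minus tumour-free in both subsets and Clec4fCreId3f/f minus Id3f/f in KCs without tumour. Filled points passed an adjusted p of 0.05, namely Clec4d and Clec4e in TIM4+CD206+ KCs and Clec7a, Clec12a and Clec4a1 with Id3 deletion.

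Markers of other cells were measured in the Id3 table too. The monocyte list, in which Vcan was at 0, summed to 12600 to 15300 in Id3f/f and 7060 to 7650 in Clec4fCreId3f/f samples, with 2 of 7 tested genes called lower. Plac8 made up most of that sum, at means of 13.64 and 12.69 (difference -0.95, adjusted p = 0.00151), and Ms4a4c was the other call, while Ccr2 had 6.33 and 6.42 and Chil3 4.54 and 4.49. The recruited-macrophage list summed to 4930 to 5580 against 4420 to 4910, with 3 of 7 called lower. The neutrophil list, with Ly6g at 0, summed to 1280 to 1480 against 1180 to 1340, with none of 8 tested called. Hepatocyte markers summed to 18900 to 25100 against 22900 to 27100, with Tat higher (0.77, adjusted p = 0.0182) and Fabp1 lower (-0.54, adjusted p = 0.0432), and endothelial markers to 9960 to 12600 against 10800 to 11100, with Pecam1 higher (0.58, adjusted p = 0.018) and Clec4g lower (-0.80, adjusted p = 0.0179). No dendritic, B, T or NK, epithelial or stellate marker was called. Of 13 Kupffer cell genes 4 rose, among them Adgre1 (0.79, adjusted p = 0.00165) and Csf1r (0.50, adjusted p = 0.0101), and 2 fell, Folr2 (-0.55, adjusted p = 0.0225) and Clec4f, the gene that drives the Cre, from 17.64 to 16.12 (-1.52, adjusted p = 1.8e-06). The part of these changes in the values of Clec7a, Clec12a and Clec4a1 was not tested.

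Signalling genes around these receptors were also called with Id3 deletion. In the kinase and adaptor list 3 of 10 rose, namely Lyn (0.35, adjusted p = 0.0259), Vav1 (0.54, adjusted p = 0.0236) and Prkcd (0.39, adjusted p = 0.0378), while Fcer1g fell by 0.31 (adjusted p = 0.0464). Of 3 phosphatases that inhibitory receptors recruit, Ptpn6 rose by 0.48 (adjusted p = 0.0116) and Inpp5d by 0.52 (adjusted p = 0.0344). None of the 8 CARD9-complex or 7 NF-kB genes was called, with Bcl10 at means of 11.11 and 11.01 and Nfkbia at 13.94 and 13.59. Of 10 tested cytokine and response genes 2 fell, Il1b by 0.64 (adjusted p = 0.00618) and Il10 by 0.36 (adjusted p = 0.0388). Among 6 tested neighbours in the clusters, Clec4b1, another activating lectin, rose by 0.55 (adjusted p = 0.0172) and Clec1b, which encodes CLEC-2, fell by 0.32 (adjusted p = 0.0469).

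Receptors were then set against Card9 in the same sample, as the log2 receptor value less that of Card9, which does not depend on a scaling factor of the library. These values are not divided by length and serve to compare groups, not the receptor with Card9. In TIM4+CD206+ KCs 4 of the 8 receptors did not overlap between the groups, 3 higher and 1 lower with tumour, beside 15.3% of all genes set against Card9 in this way, 3.44% higher and 11.8% lower. The shift was 1.51 for Clec4e (SE 0.31), 1.31 for Clec4d (SE 0.28), 0.25 for Clec4n (SE 0.15) and -1.27 for Clec4a1 (SE 0.30). In TIM4+CD206hi KCs 4 of 8 did not overlap, all lower, beside 38.3% of all genes, 6.94% higher and 31.3% lower. These were Clec4a1 (-1.44, SE 0.54), Clec4a3 (-0.93, SE 0.45), Clec12a (-0.82, SE 0.41) and Clec4a2 (-0.78, SE 0.46), and in this subset Card9 itself was higher in each tumour-bearing sample.

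With Id3 deletion 5 of 8 receptors did not overlap relative to Card9, 2 higher and 3 lower, beside 35.0% of all genes, 19.1% higher and 16.0% lower. They were Clec7a (-0.69, SE 0.13), Clec12a (-0.39, SE 0.08) and Clec4n (-0.29, SE 0.09) on the lower side and Clec4a2 (0.65, SE 0.25) and Clec4a1 (0.45, SE 0.08) on the higher side. The exact two-sided permutation test over samples cannot go below p = 0.1 for any of these 24 comparisons, so none could reach 0.05.

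**Figure D4:**
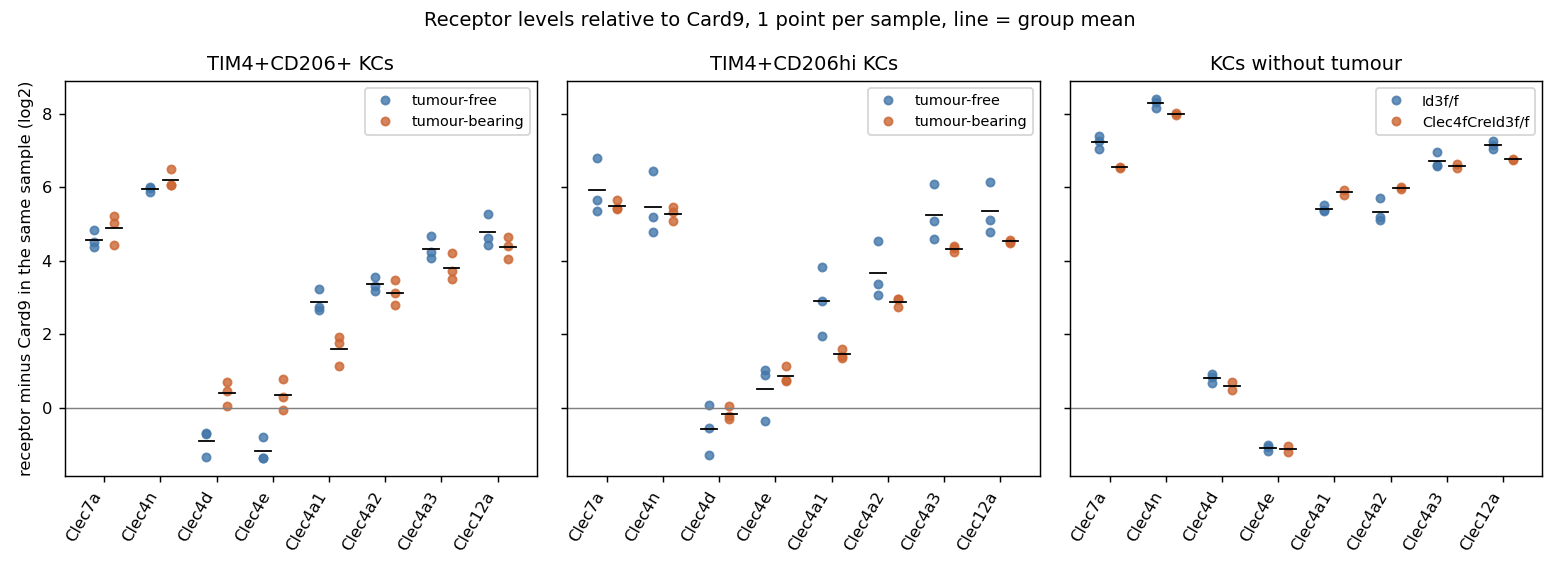
Receptor value less that of Card9 in the same sample, on the log2 scale, 1 point per sample with group means as lines. With values not divided by transcript length, the means of Clec4d and Clec4e less Card9 were -0.90 and -1.17 without and 0.41 and 0.34 with tumour in TIM4+CD206+ KCs, and Clec7a was lower in Clec4fCreId3f/f than in Id3f/f KCs (7.23 to 6.54).

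Across the 17 samples, with each gene centred on its table mean, Clec4d and Clec4e ran closest together of the member pairs, with Pearson's r of 0.96. Within tables r was 0.96 in TIM4+CD206+, 0.97 in TIM4+CD206hi and 0.71 in Id3 samples. Clec7a and Clec4n had r of 0.82, and Clec4d and Clec4a1 r of -0.74. Of 12222 genes tested in all 3 tables, those most like Clec7a were Ms4a7 (r = 0.92), Plgrkt (0.91), Rps7 (0.90), Rps27a (0.90) and Rpl17 (0.90), and Clec4n ranked 74 of them. The samples of a table share its normalisation and the group differences, so these values are a description only.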

How the data were processed

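The 9 genes, the gene lists and the tests were chosen with earlier results of these data known. The authors amplified RNA of sorted KCs with a SMART-Seq kit, without strand information or molecular identifiers, aligned reads with STAR 2.7.10a, counted them with HTSeq and used DESeq2, with mm10 (GRCm38) as the build in the submitters' processing notes. The deposited values are on a log2 scale and behave as regularized log2 counts made separately for each of 3 tables, although the headers name TPM. Regularization understates differences of genes with few reads, and depth per sample can be given only as the sum of the linear values. All columns matched a sample.

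Groups were compared within a table with limma 3.58.1 (R 4.3.3) with a mean-variance trend, after keeping genes at 10 or more on the linear scale in as many samples as the smaller group, and p-values were adjusted by Benjamini-Hochberg over all genes tested. A call is an adjusted p below 0.05. Receptors less Card9 were compared by exact permutation. Scripts were tested on simulated data. Correlations of same-numbered samples were 0.35, 0.56 and 0.15 in TIM4+CD206+ KCs and at most -0.05 in the other tables. The labels state no pairing, and other matchings of the samples were not compared. Alternatives were no filter, a minimum of 50, no trend, median centring, quantile normalisation, a replicate block and leaving out each sample. All 9 genes are named. From pathway, neighbour and marker lists, the called genes and those with the highest mean were eligible. The authors' own comparisons were not used. Some genes of the pathway lists are not reported here and were left out of the lists' counts.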

Additional observations from a re-analysis of the deposited data

How the results depend on the processing

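Of 314 results for single genes under the alternatives, 273 kept their direction and side of the threshold, 17 passed it only under the alternative, 12 lost it and 12 changed sign. In TIM4+CD206+ KCs the replicate block gave 4 calls among the 9 genes in place of 2 (7.75% of all genes in place of 3.54%). Leaving out single samples there gave 1 to 3 (1.71% to 7.64%). In TIM4+CD206hi KCs leaving out single samples gave 0 to 4 calls in place of 0 (3.95% to 24.9% of all genes in place of 7.23%). With Id3 deletion, where same-numbered samples did not deviate together, the block gave 6 calls in place of 3 (16.3% of all genes in place of 6.44%), a minimum of 50 gave 5 (9.84%), and leaving out single samples gave 0 to 6 (0.132% to 14.4%). Relative to Card9, the receptors whose groups did not overlap numbered 4 to 7 in TIM4+CD206+ (17.6% to 38.4% of all genes), 4 to 6 in TIM4+CD206hi (40.6% to 73.1%) and 5 to 8 in Id3 samples (43.2% to 62.0%) with single samples left out, and 3, 3 and 6 with quantile normalisation (12.9%, 35.0% and 35.9%). In the Id3 block, Id3f/f replicate 3 had no Clec4fCreId3f/f sample of its number, so the block took it out of the estimate. The block and the fit without that sample therefore gave the same differences, such as -0.78 for Clec7a and 0.84 for Clec4a2. They are not separate results. The cause of the other changes was not tested.

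The changes of sign touched genes whose main differences were 0.04 or less in size, apart from Clec4a2 in TIM4+CD206hi KCs (main -0.31). Clec4a2 in TIM4+CD206+ KCs was -0.03 with median centring and -0.05 to 0.16 with single samples left out, and in TIM4+CD206hi KCs -0.50 to 0.01. Clec7a in TIM4+CD206hi KCs was -0.12 with median centring and -0.15 to 0.33 with single samples left out. Card9 with Id3 deletion was 0.00 with quantile normalisation, 0.01 with the replicate block and -0.06 to 0.04 with single samples left out. The block changed no call in TIM4+CD206hi KCs. Clec12a with Id3 deletion lost its call under quantile normalisation (-0.30, adjusted p = 0.0635), and Clec4n gained one with median centring (adjusted p = 0.044). Levels near 5, such as Clec4e in the Id3 table, limit what could be detected.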
